A study of Mus musculus with 6 samples.

Results

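The cytochrome P450 genes of the mouse kidney were followed through ischemia and reperfusion. Members were all genes whose symbol in the platform annotation began with Cyp, a family number, a subfamily letter and a gene number. Each was read through its probe set with the highest mean intensity over the 6 arrays, out of the probe sets annotated to 1 gene symbol. This gave 72 P450 genes of 18193 genes so represented. Of these, 35 passed a filter on low intensity that left 12734 genes in all, and the other 37 were too dim to be tested. Another 4 probe sets carried more than 1 P450 symbol and were left out, although the brightest, shared by Cyp4a31 and Cyp4a10, read up to 31724. Cyp4a10, Cyp4a12b and Cyp51 had no entry under the rule.

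The animals were male FVB/N mice, 6 to 8 weeks old and of 22 to 26 g. Under pentobarbital anaesthesia, a microclamp closed the pedicle of 1 kidney for 0, 45 or 60 min, and the kidney was taken 1 or 3 days after it was reopened. The 0 min mice went through the surgery without a period of clamping and serve as the controls of their day. There was 1 array for each of the 6 combinations, and the labels do not say how many animals stand behind an array. A difference between 2 arrays therefore has no replicate check. The p-values measure the spread around an additive fit of clamp time and day over 6 arrays, with 2 residual degrees of freedom. That spread mixes array variation, which may be technical, with any response to clamping that differed between days.

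P450 enzymes are heme proteins that insert oxygen into lipids, steroids, vitamins and foreign compounds, using electrons passed on by a reductase. In the kidney they sit mainly in the proximal tubule. There, Cyp4a and Cyp2j enzymes turn arachidonic acid into mediators of vessel tone and salt transport, and mitochondrial P450s make and destroy active vitamin D. Several mouse P450 genes are higher in males, and the Cyp4a genes are well-known targets of the fatty acid receptor PPAR alpha.

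Values are intensities on a linear scale that the authors had set to the same trimmed mean on every array (500.003). Array medians lay between 81.4 and 95.3, and 18.4% to 20.6% of probe sets read below 16. Markers of proximal tubule were bright on every array: the 14 of 15 that were on the array and tested summed to 156645 to 255014, and none read below 16. Adrenal cortex, a neighbouring tissue rich in P450 enzymes, left little signal. Its 5 measured markers of 6 summed to 426 to 889, and up to 3 of them read below 16. RNA quality was read from the log2 ratio of 3′ to 5′ actin control probe sets. That ratio was 1.08 to 1.12 on day 1, and 0.77, 1.03 and 0.49 at 0, 45 and 60 min on day 3. In whole kidney, fewer cells of a type and less RNA per cell cannot be told apart.

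Among the 72 genes, the P450 signal at 0 min came from a small set. The 12 with the brightest probe sets were Cyp4b1, Cyp2e1, Cyp2j5, Cyp7b1, Cyp4a14, Cyp2d9, Cyp2j13, Cyp4a12a, Cyp2j11, Cyp2d26, Cyp4a31 and Cyp24a1. They held 89.3% to 94.5% of the summed intensity of all 72 on each array. Probe sets bind with different strength, so this order is not an order of transcript numbers. Neither the list nor the share includes the probe sets with several P450 symbols. At 0 min on days 1 and 3, that of Cyp4a31 and Cyp4a10 read 31724 and 14740. That of Cyp2a5 and Cyp2a4 read 17900 and 8290. The sum over all 72 was 165830 at 0 min, 112009 at 45 min and 94844 at 60 min on day 1. On day 3 it was 142585, 141639 and 87021. All 4 clamped kidneys were below both controls, the 45 min kidney of day 3 by little. The dim side held the liver-type Cyp2b and most Cyp2c genes, Cyp7a1 and Cyp8b1 of bile acid synthesis, and the steroid-forming Cyp11a1, Cyp11b1, Cyp11b2 and Cyp17a1. Mean intensities of these 37 genes ran from 1.49 to 67.7. Cyp2f2, with a mean log2 value of 6.06, lay just inside the filter of 6.01, and Cyp4f15, at 6.00, just outside.

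**Figure D1:**
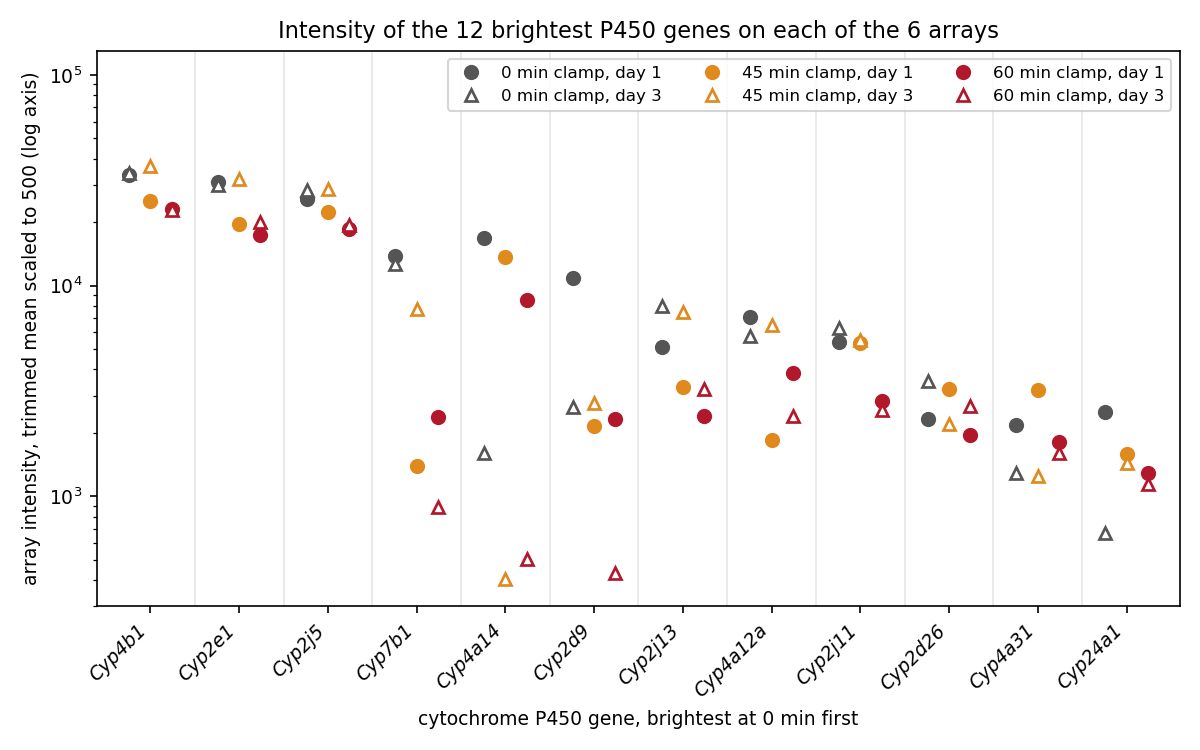
Array intensity (log axis) of the 12 P450 genes with the brightest probe sets at 0 min, 1 point per array, coloured by clamp time, filled circles for day 1 and open triangles for day 3. Cyp7b1 lies at 12608 or more in both 0 min kidneys and at 2373 or less in 3 of the 4 clamped ones, and Cyp4a14 is split by day.

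The first question was what clamping did. No gene of the 12734 passed an adjusted p of 0.05 in limma for clamped against 0 min kidneys (the mean of 45 and 60 min minus 0 min, with day in the fit), which is 0% of genes and 0 of 35 members. With a trended and robust variance prior, 75 genes passed and 0 members. Without the 45 min day 3 array, 200 genes and 3 members (Cyp7b1, Cyp2d9 and Cyp4a12a) did. At an unadjusted p under 0.05, 9 of 35 members were lower, against 5.03% of all genes, and 5 were higher, against 9.56%. Lower members were thus 25.7% of the 35 and higher members 14.3%. The 9 became 3 without the 0 min day 1 array, and the 5 became 2 without its day 3 counterpart. When the 60 min day 3 array was left out, the 5 became 3. The median difference over the 35 members was -0.09 on the log2(intensity + 16) scale, beside 0.01 for all genes tested. All 4 clamped kidneys lay below both controls for 5 members (background 8.94%) and above both for 4 (background 10.9%). With the array medians set equal, these counts were 7 and 2, and the background 14.7% and 6.86%.

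Array by array, more members were at least 2-fold lower than higher in every clamped kidney except the 45 min kidney of day 3. At 45 min on day 1, 8 of 35 members were at least 2-fold lower than the control of that day, against 1.06% of genes, and 2 were at least 2-fold higher, against 3.57%. At 60 min on day 1, 7 were lower and 2 higher, against 1.71% and 4.39% of genes. At 45 min on day 3, 2 were lower (background 0.785%) and 2 higher (1.5%). At 60 min on day 3, 6 were lower (2.32%) and 2 higher (7.58%). With the array medians set equal, the last 2 splits were 2 lower to 1 higher and 6 to 1, and those of all genes 1.11% to 1.05% and 4.00% to 5.77%. These single-array comparisons share controls, so their counts are not independent. The 2 controls also differed from each other. Between them, 6 of 35 members were at least 2-fold lower on day 3 (background 1.4%) and 2 higher (1.71%).

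**Figure D2:**
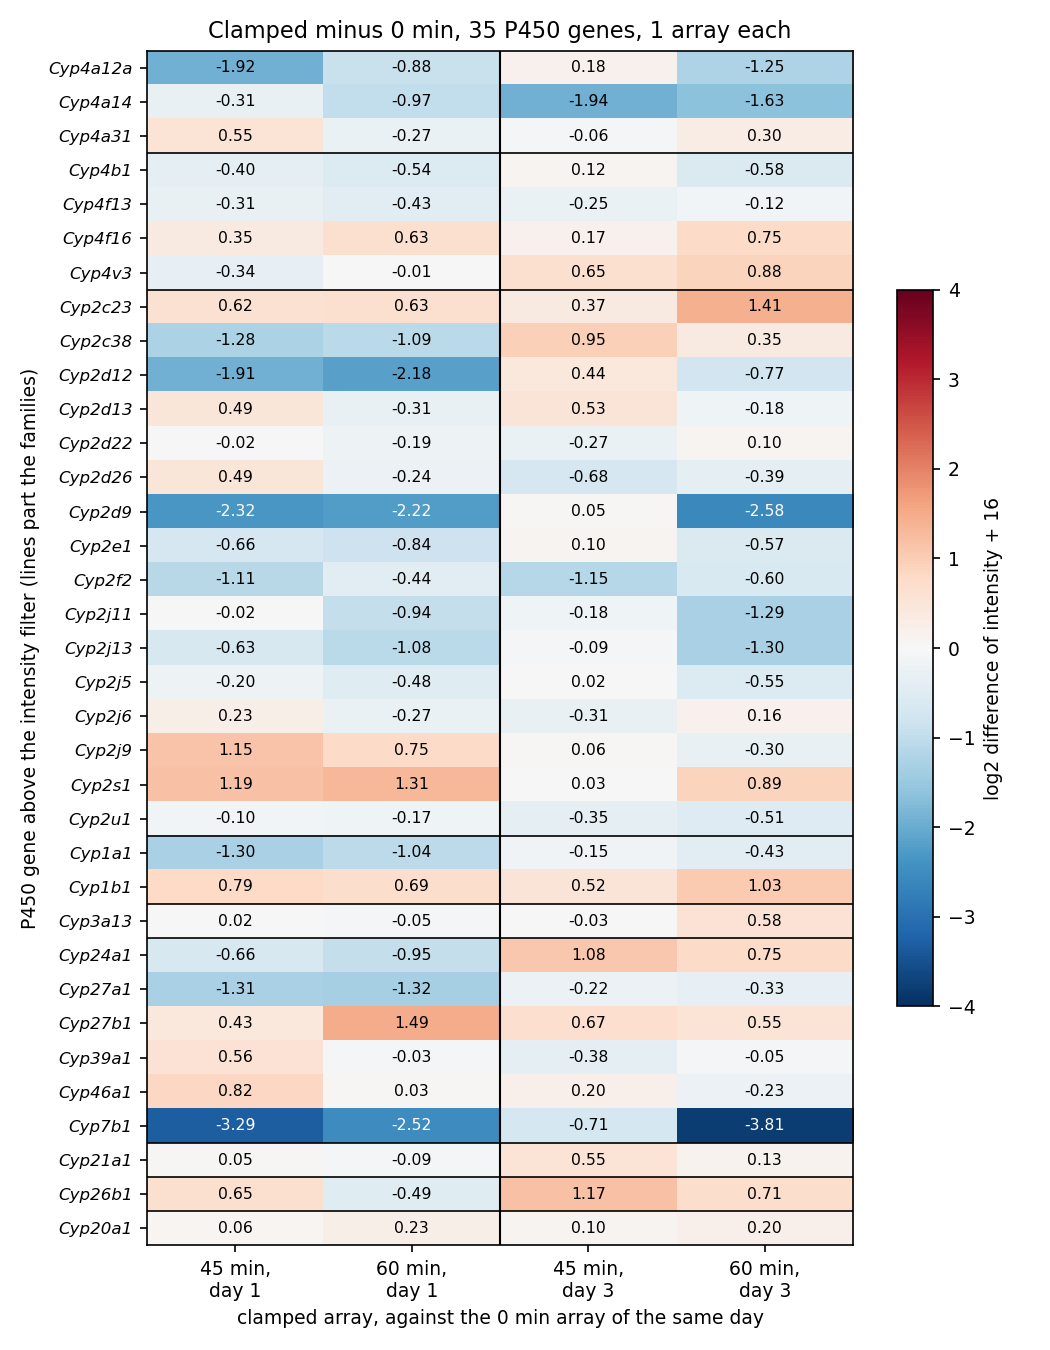
Log2 difference of (intensity + 16) between each clamped array and the 0 min array of the same day, for the 35 tested P450 genes in rows, with lines between families. Blue is lower and red higher in the clamped kidney, and the printed numbers are the differences, from -3.81 (Cyp7b1 at 60 min on day 3) to 1.49 (Cyp27b1 at 60 min on day 1).

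Among the sterol enzymes, Cyp7b1 carried the lowest clamped minus 0 min estimate of all 12734 genes. It encodes the oxysterol hydroxylase of the alternative bile acid pathway, which also acts on adrenal androgen precursors. Its probe set (1421074_at) read 13732 at 0 min, 1391 at 45 min and 2373 at 60 min on day 1, and 12608, 7714 and 887 in the same order on day 3. All 4 clamped kidneys lay below both controls, by 9.87-fold at 45 min and 5.79-fold at 60 min on day 1, and by 1.63-fold at 45 min and 14.2-fold at 60 min on day 3. The fitted difference was -2.58 ± 0.77 (log2, SE, limma, unadjusted p = 0.0203, adjusted p = 0.266). Without the 45 min day 3 array, the clamped kidney nearest the controls, it was -3.39. Without the 45 min day 1 array it was -1.78. Its place among all genes ran from the lowest to the sixth lowest over the settings tried. Averaged over its probe sets the difference was -1.67. Another Cyp7b1 probe set gave differences of -3.24, -2.60, -0.68 and -3.67 in the same order. The third, with a mean intensity of 15.4, was too dim to compare.

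Cyp27a1, a mitochondrial sterol hydroxylase that feeds both bile acids and vitamin D, was also below both controls in all 4 clamped kidneys. It read 1714 at 0 min, 683 at 45 min and 675 at 60 min on day 1, and 1032, 882 and 819 in the same order on day 3. The gap was wide on day 1 (-1.31 and -1.32) and narrow on day 3 (-0.22 and -0.33), and the fitted difference was -0.80 ± 0.26 (limma adjusted p = 0.291). It was -0.28 without the 0 min day 1 array and -0.37 averaged over probe sets. The 2 vitamin D enzymes of the kidney were read on opposite ends of the pathway. Cyp27b1, which makes the active hormone, read 53 at 0 min, 76.6 at 45 min and 177 at 60 min on day 1, and 123, 206 and 187 in the same order on day 3, so each clamped kidney exceeded the control of its day, by 0.43, 1.49, 0.67 and 0.55. The 45 min day 1 kidney was still below the day 3 control. Its fitted difference was 0.78 ± 0.27 (limma adjusted p = 0.31).

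Cyp24a1, which inactivates the hormone, read 2514 at 0 min, 1590 at 45 min and 1294 at 60 min on day 1, and 670.2, 1438 and 1138 in the same order on day 3. Both clamped kidneys were below the control on day 1 (-0.66 and -0.95) and above it on day 3 (1.08 and 0.75). The 4 clamped kidneys lay between 1138 and 1590, and it was the controls that stood far apart, at 2514 and 670.2. A dimmer Cyp24a1 probe set had the same signs, with -0.13, -0.65, 0.43 and 0.68. Cyp39a1 and Cyp46a1, which act on side-chain oxidised sterols and on cholesterol, had no common sign against their controls over the 4 clamped kidneys. Other genes of vitamin D and sterol handling were read from a list. Of 14 tested out of 19 listed, 6 were lower and 1 higher at an unadjusted p under 0.05, beside 5.03% and 9.56% of all genes, and 0 at an adjusted p. Their median was -0.28 beside 0.01 for all genes, but in the 45 min kidney of day 3 it was 0.02, with 8 of the 14 above the control.

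Of the Cyp4a genes, which hydroxylate fatty acids at the omega end, Cyp4a12a had the widest difference on day 1. This enzyme makes most of the vasoconstrictor hydroxy-eicosanoid in male mouse kidney. It read 7070 at 0 min, 1855 at 45 min and 3838 at 60 min on day 1, and 5738, 6484 and 2407 in the same order on day 3. Day 1 at 45 min and day 3 at 60 min were the lowest, and the 45 min kidney of day 3 was within the range of the controls. The fitted difference was -0.97 ± 0.53 (limma adjusted p = 0.452), and -1.54 without the 45 min day 3 array. With the 45 min kidney of day 1 left out it was -0.40.

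Cyp4a14, the strongly PPAR alpha driven member, read 16833 at 0 min, 13595 at 45 min and 8576 at 60 min on day 1, and 1603, 407 and 506 in the same order on day 3. Every clamped kidney was below the control of its day, by -0.31 and -0.97 on day 1 and by -1.94 and -1.63 on day 3, with a fitted difference of -1.21 ± 0.34 (limma adjusted p = 0.253). The groups of clamped and control kidneys still overlapped, since both clamped kidneys of day 1 read above the day 3 control. Cyp4a31 read 2187 at 0 min, 3208 at 45 min and 1817 at 60 min on day 1, and 1296, 1244 and 1597 in the same order on day 3, with signs that differed between arrays. Probe sets of such close copies may bind one another's RNA.

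The other Cyp4 genes were split. Cyp4b1, which hydroxylates short fatty acids and activates some plant toxins, read 33486 at 0 min, 25294 at 45 min and 23093 at 60 min on day 1, and 34132, 37080 and 22753 in the same order on day 3. Both 60 min kidneys and the 45 min kidney of day 1 were below both controls, and the 45 min kidney of day 3 was the highest of the 6 (fitted -0.35 ± 0.17, limma adjusted p = 0.412). Cyp4f16, of a subfamily known for leukotriene hydroxylation, read 169 at 0 min, 219.8 at 45 min and 270.3 at 60 min on day 1, and 151, 172 and 266 in the same order on day 3. All 4 clamped kidneys were above both controls, the 45 min kidney of day 3 only slightly. The fitted difference was 0.47 ± 0.14 (limma adjusted p = 0.257). A dimmer Cyp4f16 probe set, with a mean intensity of 54.4, was below the control at 45 min on both days (-0.17 and -0.18). At 60 min it was above the control on both days (0.59 and 1.11).

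In the Cyp2 family, 16 of 35 genes were tested, and their median difference from the control of the day was -0.06 at 45 min and -0.38 at 60 min on day 1. On day 3 it was 0.03 and -0.45. Cyp2d9, a male-predominant steroid hydroxylase, had the widest differences in the family. Its probe set (1419349_a_at, of a kind that can match several transcripts of a gene) read 10865 at 0 min, 2164 at 45 min and 2314 at 60 min on day 1, and 2666, 2761 and 433 in the same order on day 3. The day 1 control stood alone at the top, 4.07-fold above the day 3 control. Clamped kidneys of day 1 were 5.02-fold and 4.69-fold lower than their control, and on day 3 the 45 min kidney was level with it (0.05) while the 60 min kidney was 6.16-fold lower. The fitted difference was -1.77 ± 0.59 (limma adjusted p = 0.293), and -2.40 without the 45 min day 3 array. With the 45 min kidney of day 1 left out it was -1.13. Cyp2d12, next to it on chromosome 15 among the tested P450 genes, read 781 at 0 min, 196 at 45 min and 159.9 at 60 min on day 1, and 269, 369 and 151 in the same order on day 3. Its day 1 control was likewise far above the clamped kidneys of that day (fitted -1.11 ± 0.47, limma adjusted p = 0.373). Without that control the Cyp2d12 difference was -0.17, and without the day 3 control -2.05. The remaining tested genes of the subfamily, Cyp2d13, Cyp2d22 and Cyp2d26, were within 0.68 of their controls in either direction.

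Cyp2e1, which oxidises ethanol and other small molecules, read 30932 at 0 min, 19601 at 45 min and 17288 at 60 min on day 1, and 29840, 31920 and 20062 in the same order on day 3. Its pattern was that of Cyp4b1: the 60 min kidneys and the 45 min kidney of day 1 were below both controls, and the 45 min kidney of day 3 was above them. The fitted difference was -0.49 ± 0.19 (limma adjusted p = 0.342). Cyp2f2, known from lung airway cells, was dim but below both controls in all 4 clamped kidneys, at 69.7 at 0 min, 23.7 at 45 min and 47.1 at 60 min on day 1, and 94.9, 33.9 and 57.2 in the same order on day 3. It had a fitted difference of -0.83 ± 0.13 (limma adjusted p = 0.165).

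The Cyp2j genes, epoxygenases of arachidonic acid that form 1 cluster on chromosome 4, were all tested (5 of 5). Cyp2j5, the main epoxygenase of mouse kidney, read 25702 at 0 min, 22443 at 45 min and 18473 at 60 min on day 1, and 28403, 28859 and 19419 in the same order on day 3. Cyp2j11 read 5424 at 0 min, 5359 at 45 min and 2823 at 60 min on day 1, and 6273, 5522 and 2564 in the same order on day 3. Cyp2j13 read 5125 at 0 min, 3296 at 45 min and 2411 at 60 min on day 1, and 7986, 7521 and 3227 in the same order on day 3. In all 3 genes both 60 min kidneys were below all 4 other kidneys, whereas the 45 min kidney of day 3 lay within or close to the range of the controls. Cyp2j6 (456 at 0 min, 536 at 45 min and 377 at 60 min on day 1, and 471, 376 and 528 in the same order on day 3) and Cyp2j9 (118 at 0 min, 282 at 45 min and 209.8 at 60 min on day 1, and 234, 244 and 187 in the same order on day 3) did not share this order. Fitted clamped minus 0 min differences were -0.78 ± 0.20 for Cyp2j13 and -0.61 ± 0.14 for Cyp2j11, with limma adjusted p of 0.23 and 0.21. That of Cyp2j5 was -0.30 ± 0.14, with a limma adjusted p of 0.391.

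Start-site sequence is shown for Cyp2d9 and for Cyp2j5, Cyp2j11 and Cyp2j13, the members that were low together at 60 min. Cyp2j6, of the same cluster but without that order, is shown as well. Cyp2j9, which also lacked that order, is not shown. Each sequence shown is the 250 bases before a start that RefSeq lists in GRCm38.p6, 5′ to 3′ on the strand of the gene. They span chr15:82452127-82452376 (plus strand), chr4:96664120-96664369, chr4:96348681-96348930, chr4:96077541-96077790 and chr4:96553652-96553901 (minus strand). Cyp2j13 has 2 listed starts, of which the first was used. Capitals mark matches on either strand to any of 5 motifs searched. These were the TATA box as TATAAA, the nuclear receptor hexamer AGGTCA, the androgen and glucocorticoid receptor hexamer AGAACA, the HNF1 hexamer GTTAAT, and the CCAAT box. Motifs could overlap one another.
Cyp2d9: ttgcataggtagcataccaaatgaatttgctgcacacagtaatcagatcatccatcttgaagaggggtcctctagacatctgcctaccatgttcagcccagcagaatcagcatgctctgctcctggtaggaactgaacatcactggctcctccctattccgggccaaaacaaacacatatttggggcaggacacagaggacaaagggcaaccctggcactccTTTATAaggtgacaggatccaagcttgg
Cyp2j5: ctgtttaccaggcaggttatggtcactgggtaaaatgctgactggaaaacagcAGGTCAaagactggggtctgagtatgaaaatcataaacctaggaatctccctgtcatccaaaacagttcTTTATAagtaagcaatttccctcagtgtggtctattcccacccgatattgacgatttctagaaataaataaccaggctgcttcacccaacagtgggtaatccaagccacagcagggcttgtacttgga
Cyp2j11: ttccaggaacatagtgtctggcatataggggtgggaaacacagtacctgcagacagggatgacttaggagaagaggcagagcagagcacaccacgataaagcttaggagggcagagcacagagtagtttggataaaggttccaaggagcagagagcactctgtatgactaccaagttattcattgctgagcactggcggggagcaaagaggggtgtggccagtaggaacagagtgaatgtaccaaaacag
Cyp2j13: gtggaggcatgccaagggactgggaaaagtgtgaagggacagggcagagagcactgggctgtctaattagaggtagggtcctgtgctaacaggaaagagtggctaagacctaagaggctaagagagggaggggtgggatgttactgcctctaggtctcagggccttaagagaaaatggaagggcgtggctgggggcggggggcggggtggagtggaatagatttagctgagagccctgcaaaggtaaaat
Cyp2j6: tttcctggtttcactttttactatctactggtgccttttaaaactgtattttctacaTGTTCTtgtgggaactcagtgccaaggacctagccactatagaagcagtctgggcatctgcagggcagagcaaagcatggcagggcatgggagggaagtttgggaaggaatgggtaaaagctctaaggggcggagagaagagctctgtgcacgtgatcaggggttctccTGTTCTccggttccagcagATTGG
Cyp2d9 and Cyp2j5 hold the TATA letters and Cyp2j5 also the nuclear receptor hexamer. Cyp2j6 holds the steroid receptor hexamer at 2 places and CCAAT at 1. None of the 5 motifs is found in these windows of Cyp2j11 and Cyp2j13. The same window of Cyp2j9, which did not share their order, holds none either. Promoter entries were matched for 23 of the 35 tested members. The TATA letters occur in 7 of these 23 (30.4%), beside 13.0% of 27025 promoter windows of that length. CCAAT occurs in 9 (39.1%, beside 34.5%), AGAACA in 4 (17.4%, beside 16.2%), AGGTCA in 2 (8.70%, beside 13.8%) and GTTAAT in 1 (4.35%, beside 6.52%).

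A smaller set of P450 genes was higher after clamping. Cyp1b1, an aryl hydrocarbon receptor target that acts on estrogens and retinoids, read 924 at 0 min, 1604 at 45 min and 1498 at 60 min on day 1, and 1021, 1470 and 2106 in the same order on day 3. All 4 clamped kidneys were above both controls, with a fitted difference of 0.76 ± 0.17 (limma adjusted p = 0.21). A dimmer Cyp1b1 probe set had the same sign in each comparison (fitted 0.34) and the dimmest, with a mean intensity of 26.1, the opposite one (-0.90). Averaged over its probe sets, the fitted difference of Cyp1b1 was 0.07. Cyp1a1, the classical target of the same receptor, was dim and went the other way, at 106 at 0 min, 33.5 at 45 min and 43.2 at 60 min on day 1, and 64.7, 56.7 and 43.9 in the same order on day 3 (fitted -0.73 ± 0.25, limma adjusted p = 0.311). The epithelial enzyme Cyp2s1 read 214 at 0 min, 506 at 45 min and 555 at 60 min on day 1, and 232, 237 and 444 in the same order on day 3. All 4 clamped kidneys were above both controls, although the 45 min kidney of day 3 exceeded them only slightly (fitted 0.85 ± 0.26, limma adjusted p = 0.267).

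Cyp2c23, a rodent kidney arachidonic acid epoxygenase, read 129.9 at 0 min, 209 at 45 min and 210.5 at 60 min on day 1, and 76.3, 104 and 229 in the same order on day 3. Each clamped kidney was above the control of its day, with the widest gap at 60 min on day 3 (fitted 0.76 ± 0.24, limma adjusted p = 0.279). The probe sets of Cyp2c23 (1424576_s_at) and Cyp4v3 (1417071_s_at) are of a kind that can match more than 1 gene. Cyp20a1, an orphan enzyme, varied least, at 1321 at 0 min, 1382 at 45 min and 1557 at 60 min on day 1, and 1322, 1423 and 1525 in the same order on day 3. Its clamped kidneys were all above both controls, but by no more than 0.23 against the control of the day. Beside these higher genes, all 6 fibroblast and myofibroblast markers and all 10 macrophage and neutrophil markers had positive clamped minus 0 min estimates, with medians of 1.45 and 0.61. Their sums ran from 8903 to 14532 and from 5886 to 9939 in the controls, against 23411 to 40873 and 9430 to 31953 in the clamped kidneys. No marker of either list read below 16. All 5 tested tubular injury markers had positive estimates too, with a median of 2.29. Of the endothelium and podocyte markers, 4 of 6 and 2 of 4 did, with medians of 0.12 and 0.16. The part of any of these lists in the higher P450 genes was not tested.

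The next question was what 60 min added to 45 min. Again 0 of 12734 genes (0%) passed an adjusted p of 0.05 in limma, and 6 of 35 members were lower and 2 higher at an unadjusted p under 0.05, against 5.29% and 7.76% of genes. The 6 became 10 without the 45 min day 1 array. They became 3 when the 60 min day 3 array was left out. The 2 became 4 without the 45 min day 1 array, and 1 without either 0 min array or the 60 min day 1 array. The 6 lower members were Cyp2j5, Cyp2j11, Cyp2j13, Cyp2d13, Cyp26b1 and Cyp46a1. The fitted 60 minus 45 min difference was -1.01 ± 0.16 for Cyp2j11 (limma unadjusted p = 0.00148, adjusted p = 0.306). It was -0.83 ± 0.23 for Cyp2j13 and -0.43 ± 0.16 for Cyp2j5, with limma adjusted p of 0.344 and 0.376. The median over the 5 Cyp2j genes was -0.43, beside 0.05 for all genes tested. The remaining lower members were Cyp2d13 (-0.75 ± 0.14), the retinoic acid hydroxylase Cyp26b1 (-0.81 ± 0.30) and Cyp46a1 (-0.61 ± 0.20).

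Higher at 60 than at 45 min on both days were, among others, Cyp2f2 (0.61 ± 0.15), Cyp4f16 (0.43 ± 0.16), Cyp2c23 (0.52 ± 0.28), Cyp2s1 (0.50 ± 0.30) and Cyp4v3 (0.28 ± 0.28), whose human counterpart is known from a retinal dystrophy. The difference was 0.07 for Cyp2c23 without the 60 min day 3 array, 0.02 for Cyp2s1 without the 45 min day 3 array and 0.01 for Cyp4v3 without the 45 min day 1 array. That of Cyp26b1 was -0.34 with the 60 min kidney of day 1 left out. Limma adjusted p for these 5 genes and the 3 before them lay between 0.306 and 0.681. Both 60 min kidneys were below both 45 min kidneys for 10 members (28.6% of them, background 18.8%) and above for 5 (14.3%, background 25.5%). Against both controls, both 60 min kidneys were lower for 15 members (42.9%, background 23.5%) and higher for 6 (17.1%, background 30.1%). With the array medians set equal, the count of 15 was the same and the background was 31.7%. At 45 min, both kidneys were below both controls for 5 members (14.3%, background 16.6%) and above for 8 (22.9%, background 16%), or 7 and 4 with the array medians set equal (background 25.5% and 10%). The 15 lower members were Cyp1a1, Cyp27a1, Cyp2d9, Cyp2d12, Cyp2d13, Cyp2e1, Cyp2f2, Cyp2j5, Cyp2j11, Cyp2j13, Cyp2u1, Cyp4a12a, Cyp4b1, Cyp4f13 and Cyp7b1.

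Markers of several tubule segments were lower along with these genes. All 14 tested proximal tubule markers had negative 60 minus 45 min estimates, with a median of -0.44. Their sums were 156645 and 178742 at 60 min, against 199847 and 249119 at 45 min and 222792 and 255014 at 0 min. All 7 markers of loop of Henle and distal tubule had negative estimates too, with a median of -1.32, and 5 of 6 of collecting duct, with a median of -0.30. Sums of the former were 53554 and 48798 at 60 min, 82959 and 102548 at 45 min and 98850 and 101384 at 0 min, and those of the latter 7158 and 4458, 7387 and 6339, and 9177 and 8035. None of these markers read below 16. Their part in the lower P450 values was not tested.

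The 2 days did not give the same picture for this comparison. On day 1, 1 of 35 members was at least 2-fold lower at 60 than at 45 min (Cyp26b1, background 0.982%) and 2 were at least 2-fold higher (Cyp27b1 and Cyp4a12a, background 1.02%). On day 3, 6 were lower (background 2.4%), namely Cyp7b1, Cyp2d9, Cyp4a12a, Cyp2j13, Cyp2d12 and Cyp2j11, and Cyp2c23 was higher (background 5.96%). With the array medians set equal, no member was 2-fold higher on day 3. Cyp7b1, Cyp2d9 and Cyp4a12a had positive differences on day 1 (0.76, 0.10 and 1.04) and large negative ones on day 3 (-3.10, -2.63 and -1.42). The difference between days was not tested.

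**Figure D3:**
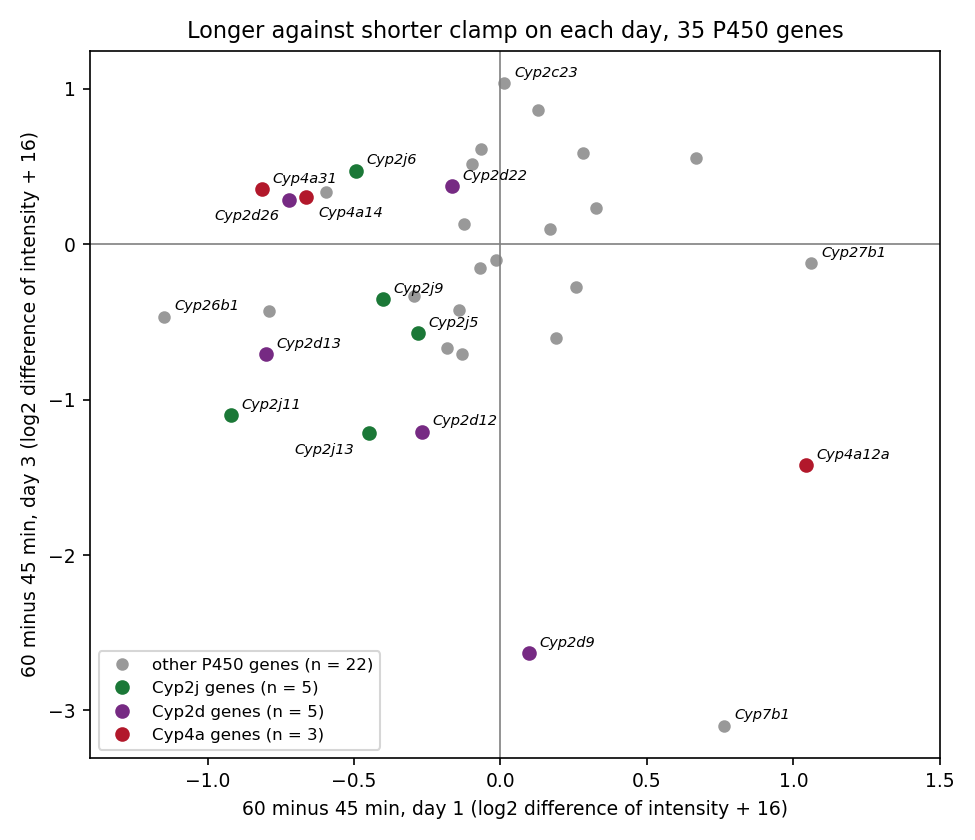
Log2 difference of (intensity + 16) between the 60 and the 45 min kidney, on day 1 (horizontal) and day 3 (vertical), 1 point per tested P450 gene, coloured for Cyp2j, Cyp2d and Cyp4a. Cyp2j5, Cyp2j9, Cyp2j11 and Cyp2j13 lie below 0 on both days, and Cyp7b1, Cyp2d9 and Cyp4a12a lie right of 0 on day 1 and at -1.42 or lower on day 3.

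The last question was how day 3 differed from day 1. Once more 0 of 12734 genes (0%) passed an adjusted p of 0.05 in limma, or 4 genes and 0 members with a trended and robust variance prior. At an unadjusted p under 0.05, 3 of 35 members were lower and 4 higher, against 5.47% and 3.59% of genes. The 4 became 1 without either 0 min array and 2 without either 60 min array. The members' median was 0.00, beside -0.02 for all genes. Cyp4a14 had the lowest day 3 minus day 1 estimate of all 12734 genes, -4.14 ± 0.32 (limma unadjusted p = 4.86e-05, adjusted p = 0.41). The 3 kidneys of day 1 read 8576 to 16833 and the 3 of day 3 read 407 to 1603. The fold between days was 10.5 at 0 min, 33.4 at 45 min and 16.9 at 60 min, so it was present in unclamped kidneys too. It was the 1 member among 11 genes (0.0864%) that were at least 2-fold lower on day 3 at all 3 clamp times. The estimate was the lowest or next to lowest of all genes under every setting tried, between -4.52 and -3.71, with adjusted p from 0.077 to 0.896.

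Day and the day's handling of animals and arrays cannot be told apart in this design. Most other PPAR alpha target genes were lower on day 3 as well, by less. Of 21 tested out of 24 listed, 19 had a negative day 3 minus day 1 estimate, with a median of -0.41 beside -0.02 for all genes. At an unadjusted p under 0.05, 9 were lower and 0 higher, beside 5.47% and 3.59% of all genes, and 0 had an adjusted p under 0.05 in limma. At 0 min alone 20 of the 21 were lower on day 3, with a median of -0.37. A link between these genes and the Cyp4a14 difference was not tested.

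**Figure D4:**
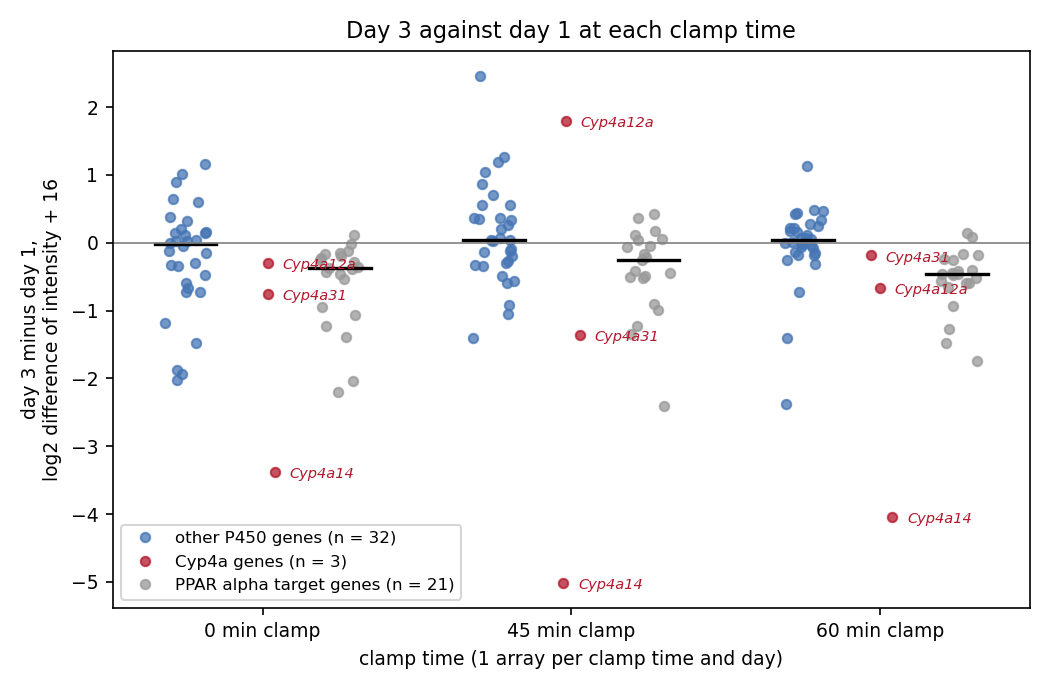
Log2 difference of (intensity + 16) between day 3 and day 1 at each clamp time, 1 point per gene, for the other tested P450 genes (blue), the 3 Cyp4a genes (red, named) and 21 PPAR alpha target genes (grey), with black bars at the medians of the blue and grey groups. Cyp4a14 lies at -3.38, -5.01 and -4.04, below every other gene drawn at all 3 clamp times.

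Cyp4a31 was also lower on all 3 arrays of day 3 than on all 3 of day 1 (-0.76 ± 0.24, limma adjusted p = 0.527), whereas Cyp4a12a had no common sign. Cyp26b1, which clears retinoic acid, read 134 at 0 min, 221 at 45 min and 90.8 at 60 min on day 1, and 23.5, 73.2 and 48.5 in the same order on day 3. All 3 day 3 kidneys were below all 3 of day 1 (-1.35 ± 0.25, limma adjusted p = 0.479). Cyp2d22 was the fourth member with that order (background 7.16%), with -0.33 ± 0.15. Only Cyp39a1 was higher on all 3 arrays of day 3 (background 4.26%), at 85.4 at 0 min, 134 at 45 min and 83.2 at 60 min on day 1, and 209.9, 157 and 202 in the same order on day 3 (0.83 ± 0.23, limma adjusted p = 0.495). Cyp2j13 (0.75 ± 0.18) and Cyp27b1 (0.78 ± 0.26) were higher on day 3 at each clamp time.

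Unclamped kidneys also differed between days. Between the 0 min arrays, 6 of 35 members were at least 2-fold lower on day 3 (background 1.4%) and 2 higher (1.71%): Cyp4a14, Cyp2d9, Cyp26b1, Cyp24a1, Cyp2d12 and Cyp2c38 on the lower side, and Cyp39a1 and Cyp27b1 on the higher. Between the 45 min arrays 4 were lower (2.06%) and 5 higher (1.19%), among the latter Cyp7b1 and Cyp4a12a, whose day 1 values were the low ones. Between the 60 min arrays 3 were lower (1.09%) and 1 higher (3.01%). With the array medians set equal, the splits at 0 and 45 min were 6 lower to 3 higher and 3 to 5, and those of all genes 1.00% to 2.37% and 1.49% to 1.54%.

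Genes that P450 enzymes work with were read from lists. Of 8 redox partners and membrane adaptors tested out of 13 listed, 0 had an unadjusted p under 0.05 in limma in any of the 3 contrasts. Their clamped minus 0 min estimates ran from -0.30 to 0.12, with a median of -0.18. Of 23 nuclear receptors and regulators of P450 genes tested out of 32 listed, 4 were lower and 2 higher after clamping at an unadjusted p under 0.05 and 0 at an adjusted p, with a median of -0.06. For this list and the next 3, the shares over all genes were 5.03% lower and 9.56% higher, and the median 0.01. Of 13 epoxide hydrolases and eicosanoid enzymes tested out of 17, 2 were lower and 2 higher, 0 at an adjusted p, with a median of 0.09. Of 13 retinoid enzymes and carriers tested out of 17, 1 was lower and 2 higher, 0 at an adjusted p, with a median of 0.26. The 5 tested of 6 androgen-responsive kidney genes had a median of -0.34, with 1 lower and 0 higher at an unadjusted p and 0 at an adjusted p. The steroid enzyme Cyp21a1, the one adrenal-type member above the filter, read 127 at 0 min, 132 at 45 min and 119 at 60 min on day 1, and 87.2, 135 and 96.6 in the same order on day 3.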

How the data were processed

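Total RNA of whole kidney was extracted with Trizol and labelled with a 3′ IVT kit, which copies RNA from its 3′ end, per the labels' protocols. Each array gave 1 deposited linear intensity per probe set, made by the authors with Affymetrix Expression Console per the submitters' processing notes, with version and algorithm not given in the sources used here. The deposited intensities share 1 mean across arrays once 2% is trimmed at each end, so a shift of many bright genes would move all others.

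Of 45101 probe sets, 34945 had 1 gene symbol in the platform annotation. A gene was read through its probe set of highest mean intensity, on the scale log2(intensity + 16), and tested if its mean reached the 40th percentile of non-control probe sets (6.01). Adding 16 understates differences of dim genes. All 72 P450 symbols matched RefSeq identifiers and 0 changed. Limma 3.58.1 in R 4.3.3 fitted clamp time (3 levels) and day over all 12734 genes, with Benjamini-Hochberg adjustment over all of them and a call at an adjusted p under 0.05. Each value given with ± is a fitted log2 difference and its SE. The 9 comparisons of 1 array with 1 array were called at 2-fold, with no p-value. The fit was checked on simulated data in which clamping acted alike on both days. That check does not cover responses that differed between days. The number of arrays limits the precision.

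Genes named were the 12 brightest members at 0 min, up to 6 members per direction and fitted contrast with the same sign in every array comparison behind it, up to 4 per direction past 2-fold in each array comparison, and a list of P450 genes of known kidney interest. Other members were named to complete a subfamily or a count. The rule also allowed 3 genes per list of other genes, which are given here by counts. Members, lists, motifs and promoters shown were chosen with earlier results of these data known. Alternatives were quantile and median scaling, pseudocounts of 1 and 64, no filter or the 60th percentile, averaged probe sets, other variance settings, clamping as 1 factor of 2 levels, and each array left out in turn. Probe sets with names ending in a plain _at alone were tried after the data were seen.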

Additional observations from a re-analysis of the deposited data

Results flagged for a closer look

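Cyp24a1, the vitamin D inactivating enzyme, was below the control of the day in both clamped kidneys on day 1 and above it in both on day 3. The mean difference from control on day 3 exceeded that on day 1 by 1.72 on the log2(intensity + 16) scale. The 0 min kidneys themselves differed by -1.88 between days, more than any pair of clamped kidneys did. Cyp4v3, a fatty acid hydroxylase, had the same arrangement of signs, with a day 3 excess of 0.94, although its day 1 difference at 60 min was only -0.01. The other Cyp4v3 probe set, with a mean intensity of 178, had no change of sign, at 0.04 and 0.05 on day 1 and 0.93 and 1.35 on day 3. With 1 array a group, the difference was not tested for either gene.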

How the results depend on the processing

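With 1 array per group, no comparison between single arrays has an error, and limma's 2 residual degrees of freedom leave wide intervals. Leaving out an array leaves 1, and the other array of its clamp time is then assumed to vary like the rest. For clamped against 0 min kidneys the count of members called was 0 to 3 when single arrays were left out, and reached 3 only without the 45 min day 3 array. Over the other settings tried, all 3 fitted contrasts called 0 members. Without the variance prior, 2 members were lower and 2 higher after clamping at an unadjusted p under 0.05. Counts of members at least 2-fold apart moved by over 1.5 times as follows, the larger tables holding more genes by construction. With no intensity filter they were 16 at 45 min and 17 at 60 min on day 1, 8 and 13 on day 3, 5 and 11 for 60 against 45 min on days 1 and 3, and 16 and 7 for day 3 against day 1 at 45 and 60 min. With the 60th percentile filter they were 2 at 45 min on day 3, 1 for 60 against 45 min on day 1 and 4 between the 0 min arrays. A pseudocount of 64 gave 2, 1 and 5 for the same comparisons, and a pseudocount of 1 gave 5 for 60 against 45 min on day 1. Shares of all genes are not given for these counts, those without the variance prior, or unadjusted counts with an array left out. They show only how far the member counts moved. Setting the array medians equal moved the median of all genes from 0.04 to -0.13 for 60 against 0 min on day 3.

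Fitted differences of single members were refitted under the alternatives for 44 pairs of member and contrast, a set chosen after their values were seen that includes every estimate given with ±. Of these, the 60 minus 45 min difference of Cyp20a1 turned to -0.015 with averaged probe sets. That of Cyp2d12, -0.74 in the fit over all arrays, ran from -1.56 to 0.085 when single arrays were left out, the last without the 45 min day 3 array. Over all 35 members, 25 of 577 alternative values turned sign for clamped minus 0 min, 35 of 542 for 60 minus 45 min and 40 of 577 for day 3 minus day 1. The largest fitted differences that turned sign under some setting were 0.42, 1.27 and 0.31 in size, in the same order of contrasts. The 1.27 was the Cyp2d9 difference of -1.27.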
